A study of Mus musculus with 12 samples.

Results

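The major urinary protein (Mup) genes of the mouse were followed in liver RNA from 12 C57BL/6J mice in 4 groups of 3. Members were taken by name: every gene symbol made of Mup and a number, or of Mup-ps and a number for the pseudogenes. This gave 42 genes of the 24983 in the count table, 22 of them protein-coding and 20 annotated as pseudogenes. All mice were on their diet for 24 weeks. Mice of 3 groups ate a diet with 40% of calories from fat (with saturated and trans fat, fructose and cholesterol) that is meant to bring on nonalcoholic steatohepatitis (NASH), and carried a minipump under the skin. The pump released nitro-oleic acid (OA-NO2), oleic acid (OA, the parent fatty acid without the nitro group), both at 5 mg/kg/day in polyethylene glycol, or polyethylene glycol alone (vehicle). The other group ate standard chow. The labels mention no pump for the chow mice, so effects of diet and pump cannot be told apart, and they give neither sex nor age. The study's title names protection by nitro-fatty acids from fat build-up and scarring of the liver as its question.

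Major urinary proteins are small secreted lipocalins, barrel-shaped carriers that hold pheromones in a central pocket. In adult mice the liver makes most of them, releases them into blood, and the kidney passes them into urine, where they serve as scent signals. Their liver expression depends on pulsatile growth hormone acting through its receptor and STAT5b, on thyroid hormone, glucocorticoid and androgen, and is far stronger in males. The genes form a tandem array that includes a large block of recent, nearly identical duplicates beside older and more distinct copies.

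In the GRCm38 genome, 41 members lie on chromosome 4 between positions 59956804 and 62150863, a stretch of 2.19 Mb with 0 protein-coding genes of other families inside. The remaining one, Mup-ps22, is a processed pseudogene on chromosome 11. Because copies are so alike, members were grouped by the 76-base windows, the length of 1 read, that their transcripts share. Members sharing at least 25% of windows were linked. This joined 16 coding genes and Mup-ps17 in a near-identical group (Mup1, Mup2, Mup7 to Mup19 and Mup22), and 14 pseudogenes in a second. Mup20 joined Mup-ps19, which shares 83.3% of its windows with it. Mup3, Mup21, Mup4, Mup5, Mup6 and 4 pseudogenes stood alone. Coding sequences of Mup1 and Mup7, inside the near-identical group, were 98.9% identical, whereas Mup7 was 90.1% identical to Mup20, 83.9% to Mup21 and 82.6% to Mup3. Mup3 and Mup21 were 94.8% identical to each other.

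The second coding exon, 134 bases in each gene shown, lets the members be told apart by eye, and is given for those on which the results turn. All are on the minus strand of GRCm38 chromosome 4, written 5′ to 3′, and capitals mark bases that differ from Mup7.
Mup7, chr4:60069733-60069866: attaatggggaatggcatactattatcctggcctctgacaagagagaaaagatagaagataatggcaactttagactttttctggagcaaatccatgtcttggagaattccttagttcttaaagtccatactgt
Mup14, chr4:61303322-61303455: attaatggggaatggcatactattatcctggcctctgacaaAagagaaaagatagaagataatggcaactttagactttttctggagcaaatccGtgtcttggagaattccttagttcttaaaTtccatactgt
Mup17, chr4:61595193-61595326: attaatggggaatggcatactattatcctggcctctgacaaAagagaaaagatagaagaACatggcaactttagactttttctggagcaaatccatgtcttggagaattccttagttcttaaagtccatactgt
Mup20, chr4:62053480-62053613: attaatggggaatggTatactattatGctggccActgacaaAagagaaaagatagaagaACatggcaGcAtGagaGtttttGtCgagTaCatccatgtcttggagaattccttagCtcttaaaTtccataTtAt
Mup3, chr4:62086800-62086933: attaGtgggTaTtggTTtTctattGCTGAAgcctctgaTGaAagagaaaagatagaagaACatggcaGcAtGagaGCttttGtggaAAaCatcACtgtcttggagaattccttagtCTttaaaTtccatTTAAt
Mup21, chr4:62150195-62150328: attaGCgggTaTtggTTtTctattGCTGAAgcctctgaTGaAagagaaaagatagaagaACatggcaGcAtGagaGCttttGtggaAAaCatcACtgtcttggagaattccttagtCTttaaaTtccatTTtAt
Mup14 and Mup17 differ from Mup7 at 3 bases each, Mup20 at 18, and Mup3 and Mup21 at 35 each. Among the exons shown, Mup20 and the pair Mup3 and Mup21 are thus more easily told from Mup7 than Mup14 and Mup17 are. Mup-ps19, whose transcript shares windows with Mup20, is not shown. Counts of single genes in that group are uncertain, and their sum is given beside them. How reads that fit several genes were counted is not given in the sources used here.

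Promoters are shown because many members moved together. RefSeq (GRCm38.p6) gave a promoter for 14 of the 22 coding members, as 250 bases before the annotated start. The last 100 of these bases are printed for the most abundant member, for its closest relative and for a gene of the near-identical group, on the minus strand, with the letters TATATAA in capitals.
Mup3, chr4:62087318-62087417: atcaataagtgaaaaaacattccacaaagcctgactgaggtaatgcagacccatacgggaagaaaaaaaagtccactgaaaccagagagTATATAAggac
Mup21, chr4:62150842-62150941: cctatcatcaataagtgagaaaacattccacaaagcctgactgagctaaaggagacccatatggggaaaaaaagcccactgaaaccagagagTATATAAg
Mup17, chr4:61595833-61595932: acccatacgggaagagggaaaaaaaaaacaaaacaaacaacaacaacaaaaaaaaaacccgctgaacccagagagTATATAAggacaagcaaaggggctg
TATATAA, a form of TATA box searched on both strands after these sequences had been seen, was in 11 of the 14 windows and in 3.04% of all 32851 RefSeq windows of that length. The 3 windows without it were those of Mup7, Mup11 and Mup14, leading genes of the near-identical group. This says only that the letters are not in these windows, whose place depends on where the start is annotated. TATAAA, which can overlap it, was in 2 of the 14 and in 12.4% of all windows. TTCNNNGAA, the core recognised by STAT5, was in 0 of the 14 and in 7.02% of all windows, which says only that these letters are not in this stretch.

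The deposited counts summed to between 8462590 (chow replicate 1) and 20613777 per library, and the second lowest total was 15972613. Levels are given as CPM, counts per 1000000 counts of a library, with totals scaled by the trimmed mean of M values (TMM). OA replicate 3 stood apart from the other OA libraries in these genes, so results that rest on it are given with and without it. Tests are edgeR quasi-likelihood tests over 14469 genes with Benjamini-Hochberg adjustment, and called genes are those whose adjusted p was under 0.05. The filter on low counts passed 31 members, 20 of them coding. The 11 that it left out held between 3 and 86 counts each over all 12 libraries: Mup4, Mup5, and the pseudogenes Mup-ps1, Mup-ps6, Mup-ps8, Mup-ps9, Mup-ps10, Mup-ps11, Mup-ps17, Mup-ps18 and Mup-ps20. The 3 mice of a group were separate animals, told apart by ear tags.

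All members together took 0.733%, 0.961% and 0.875% of the counts in OA-NO2 livers, 0.591%, 0.556% and 0.754% in OA livers, 0.421%, 0.534% and 0.522% in vehicle livers, and 1.13%, 1.72% and 1.59% in chow livers. Their summed level was 6587, 9852 and 9468 CPM in OA-NO2 livers, 5073, 4939 and 7889 CPM in OA livers, 3716, 4549 and 4544 CPM in vehicle livers, and 14870, 20660 and 19390 CPM in chow livers. Every library of the 3 NASH-diet groups lay below every chow library, and every OA-NO2 and OA library lay above every vehicle library. OA-NO2 and OA overlapped.

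**Figure D1:**
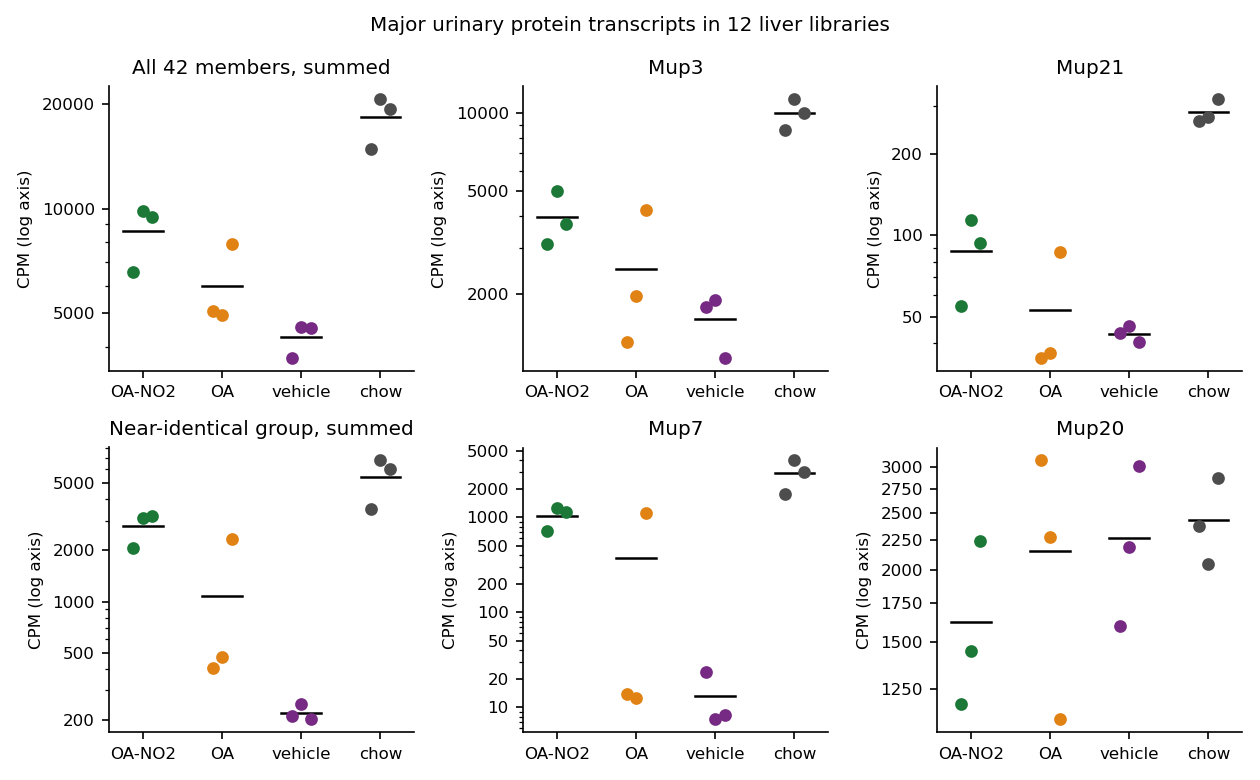
Level of the summed family, of the near-identical group and of 4 members in each liver library (points; horizontal bars are group means, n = 3), in CPM on logarithmic axes that start above 0. Chow libraries are highest for the sums, Mup3, Mup7 and Mup21 but not for Mup20, and OA replicate 3 lies with the OA-NO2 libraries in the near-identical sum and Mup7, against 408.8 and 472.3 CPM of the near-identical group in the other OA libraries.

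On the NASH diet with vehicle, the summed family lay lower than on chow, and members differed by very different amounts from gene to gene. The summed level averaged 4270 ± 480 CPM in vehicle livers and 18310 ± 3042 CPM in chow livers (SD, n = 3 each). This was 4.29-fold lower, or -2.10 ± 0.26 (SE) on the log2 scale. Of the 31 tested members, 18 fell and 0 rose, where 8.16% of all genes tested fell and 11.1% rose. Each of the 18 lay lower in all 3 vehicle livers than in any chow liver, as 19% of all genes did. The median log2 fold change was -2.11 over the tested members and -0.01 over all genes. The members that fell were 17 of the 20 tested coding genes and Mup-ps22 alone among the 11 tested pseudogenes.

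Mup3, the most abundant member, had 1780, 1895 and 1132 CPM in vehicle livers, against 8620, 11360 and 9980 CPM in chow livers (log2 fold change -2.64 ± 0.39 (SE), adjusted p = 0.00250). Mup21, its closest relative, had 43.4, 46.1 and 40.2 CPM in vehicle livers, against 263.9, 272.5 and 318.9 CPM in chow livers (-2.72 ± 0.34, adjusted p = 0.00131). The groups stood far apart for both genes, and the replicates of Mup21 were close together.

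The near-identical group lay further still under its chow level. Its summed level was 213.0, 250.4 and 202.5 CPM in vehicle livers, against 3490, 6777 and 5999 CPM in chow livers, a log2 fold change of -4.61 ± 0.60 (SE) or 24.4-fold lower. Of its 16 tested genes, 14 fell, and Mup10 (-0.56, adjusted p = 0.504) and Mup19 (-1.38, adjusted p = 0.256) were not called. Mup7, the leading gene of the group in chow, had 23.8, 7.46 and 8.37 CPM in vehicle livers, against 1781, 3978 and 3038 CPM in chow livers (-7.79 ± 1.54, adjusted p = 0.00599). Mup14 had 38.4, 28.6 and 60.4 CPM in vehicle livers, against 628.8, 870.5 and 1069 CPM in chow livers (-4.33 ± 0.72, adjusted p = 0.00331). Both were low in every vehicle liver, and Mup7 lost its place as the leading gene of the group.

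Mup11 had 13.5, 14.9 and 16.3 CPM in vehicle livers, against 338.3, 539.3 and 750.3 CPM in chow livers (-5.19 ± 0.89, adjusted p = 0.00362). Mup17 had 44.6, 31.1 and 42.1 CPM in vehicle livers, against 256.9, 771.9 and 540.2 CPM in chow livers (-3.74 ± 0.51, adjusted p = 0.00207). Mup22 had 24.9, 88.4 and 50.4 CPM in vehicle livers, against 141.3, 136.9 and 260.6 CPM in chow livers (-1.72 ± 0.51, adjusted p = 0.0338). Vehicle and chow livers did not overlap for these genes, but Mup22 differed least, and its call was lost on leaving out 5 of the 6 libraries in turn, with an adjusted p of up to 0.104, and on library size alone. The other called genes of the group, Mup1, Mup2, Mup8, Mup9, Mup12, Mup13, Mup15, Mup16 and Mup18, had log2 fold changes between -5.21 (Mup12) and -1.80 (Mup9). The call of Mup18 was also lost on leaving out any of 5 libraries (adjusted p up to 0.0936) and that of Mup9 on leaving out any of 3 (up to 0.0724).

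Mup20, also called darcin, a protein of male mouse urine that attracts females, did not follow. It had 1600, 2187 and 3013 CPM in vehicle livers, against 2370, 2044 and 2871 CPM in chow livers. The groups overlapped throughout (log2 fold change -0.10 ± 0.35 (SE), 95% interval -0.86 to 0.66, adjusted p = 0.869). The interval excludes a fall of the size seen in Mup3 or Mup21, and the sum of Mup20 with its pseudogene Mup-ps19 changed by -0.08 ± 0.36 on the log2 scale. On library size alone, with no further scaling, the value for Mup20 turned to 0.42. The difference between the change of Mup20 and that of other members was not tested on its own. Among the genes that stand alone by sequence, Mup6 averaged 5.42 ± 1.12 CPM in vehicle livers and 23.2 ± 5.63 CPM in chow livers (SD, n = 3 each) and fell (-2.11 ± 0.41, adjusted p = 0.00574). Mup-ps22 averaged 12.9 ± 1.04 CPM in vehicle livers and 55.2 ± 15.7 CPM in chow livers and fell by a like amount (-2.11 ± 0.38, adjusted p = 0.00413).

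The near-identical pseudogenes were scarce and overlapped between groups. They summed to 21.4, 15.9 and 16.3 CPM in vehicle livers and to 18.3, 33.7 and 18.4 CPM in chow livers, with a log2 fold change of -0.40 ± 0.30 (SE). Mup4 and Mup5, known from nasal, lacrimal and salivary glands more than from liver, were near the limit of detection. Mup4 had 0.103, 0.104 and 0.242 CPM in OA-NO2 livers, 0.0510, 0 and 0.0602 CPM in OA livers, 0.0466, 0 and 0.0423 CPM in vehicle livers, and 0.156, 0 and 0.128 CPM in chow livers. Mup5 had 0.103, 0.311 and 0.181 CPM in OA-NO2 livers, 0.102, 0.154 and 0.0602 CPM in OA livers, 0.0466, 0.213 and 0 CPM in vehicle livers, and 0, 0.757 and 0.0640 CPM in chow livers. Mup4 was higher in every OA-NO2 liver than in any OA or vehicle liver and overlapped with chow, and Mup5 overlapped between all groups. With 15 counts for Mup4 and 34 for Mup5 in all, neither was tested.

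**Figure D2:**
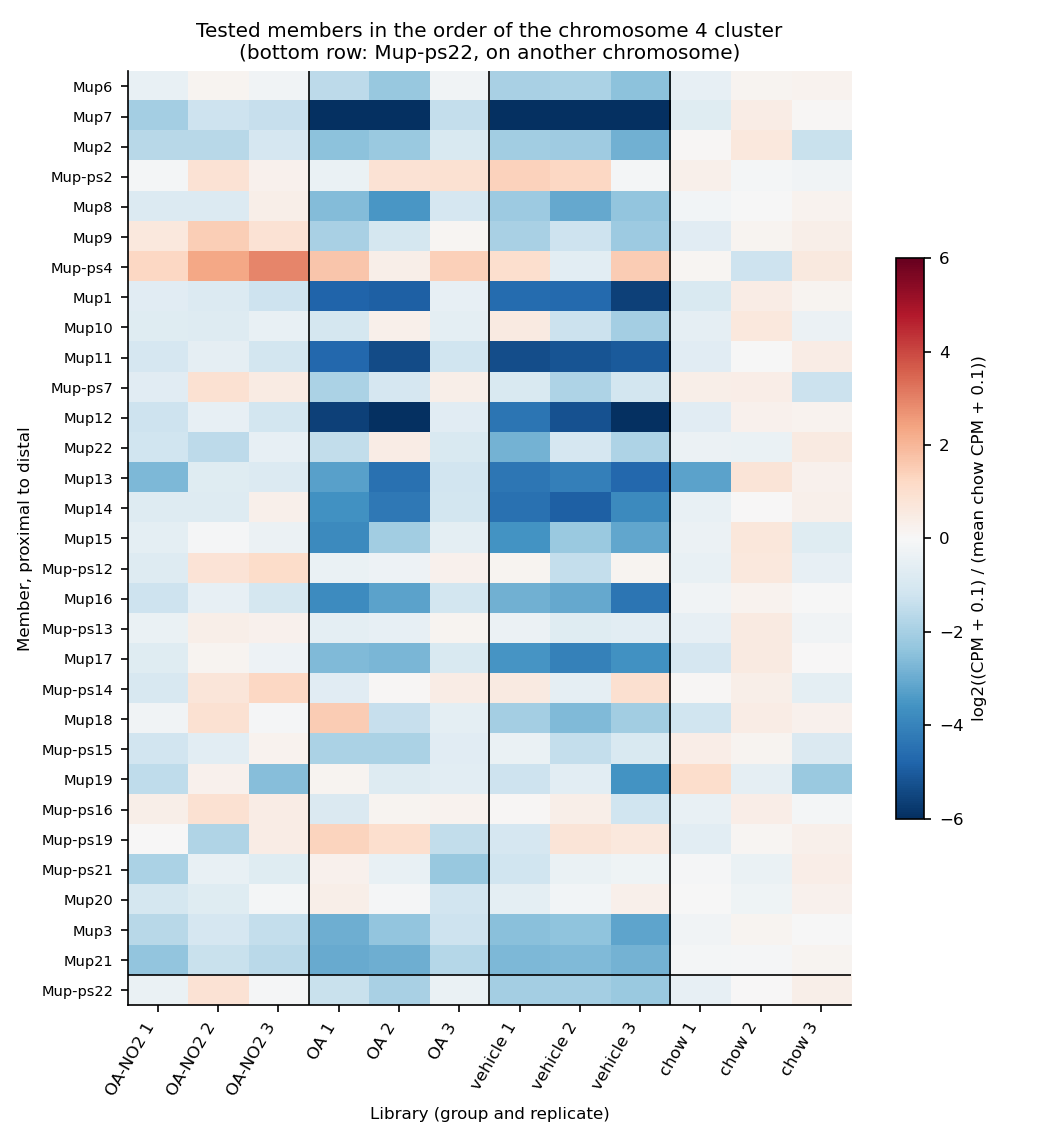
The 31 tested members (rows, in order along the chromosome 4 cluster, with Mup-ps22 of chromosome 11 below the line) in each library (columns); color gives log2 of CPM over the mean chow CPM, with 0.1 added to both and the scale ending at 6 in either direction. Vehicle livers and OA replicates 1 and 2 are dark blue for Mup7, Mup1, Mup11 and Mup12, OA replicate 3 and the OA-NO2 livers are paler there, and Mup20 stays near white.

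As members fell unequally, the make-up of the family RNA changed. Mup20 made up 43.0%, 48.1% and 66.3% of Mup counts in vehicle livers, against 15.9%, 9.90% and 14.8% in chow livers. The near-identical group made up 4.46% to 5.73% in vehicle livers, against 23.5%, 32.8% and 30.9% in chow livers. Mup3 averaged 38.2% ± 11.9 in vehicle livers and 54.8% ± 3.25 in chow livers (SD, n = 3 each). Each share separated the groups fully. Per kilobase of exon, mean levels in vehicle livers were 2442 CPM for Mup20, 1500 CPM for Mup3 and 12.8 CPM for Mup7, and in chow livers 2617 CPM for Mup20, 9352 CPM for Mup3 and 2838 CPM for Mup7. By these means, Mup20 thus stood first in the vehicle group and behind Mup3 and Mup7 in the chow group. The chow order of Mup20 and Mup7 rested on chow replicate 2, which had 2044 CPM of Mup20 and 3978 CPM of Mup7. Chow replicate 1 had 2370 CPM of Mup20 and 1781 CPM of Mup7, the other order. Chow replicate 3 had 2871 CPM of Mup20 and 3038 CPM of Mup7. With exon lengths of 928 bases for Mup20 and 1033 for Mup7, Mup20 stood ahead per kilobase there too.

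**Figure D3:**
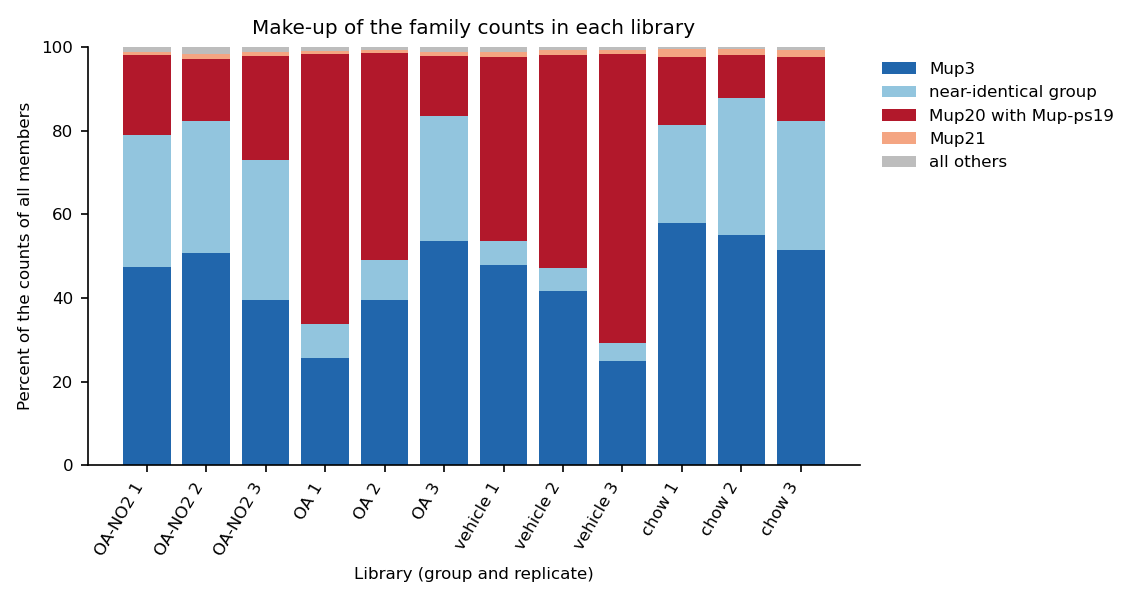
Make-up of the Mup counts of each library, as the percent held by Mup3, the near-identical group, Mup20 with Mup-ps19, Mup21 and all other members (stacked bars that sum to 100). Mup20 with Mup-ps19 is the largest block in vehicle replicates 2 and 3 and in OA replicates 1 and 2, and smaller than Mup3 and the near-identical group in all OA-NO2 and chow libraries and in OA replicate 3 (14.4%).

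With oleic acid in the pump, the family also stood below chow, but the 3 OA livers differed among themselves. The summed level averaged 5967 ± 1666 CPM in OA livers and 18310 ± 3042 CPM in chow livers (SD, n = 3 each). The log2 difference was -1.62 ± 0.25 (SE), and -1.91 ± 0.26 without OA replicate 3. Of the 31 tested members, 7 fell and 0 rose, where 2.23% of all genes fell and 6.33% rose. These were Mup21 (-2.43 ± 0.33, adjusted p = 0.00249), Mup3 (-1.999 ± 0.38, adjusted p = 0.00844), Mup16, Mup17, Mup8, Mup2 and Mup14, the last 5 with log2 fold changes between -2.32 and -1.73. The calls of Mup14, Mup16, Mup17, Mup8 and Mup2 were each lost on leaving out OA replicate 1 or OA replicate 2 and on leaving out some chow replicates, with adjusted p of up to 0.189. Without OA replicate 3, 17 of 32 tested members fell, where 5.6% of all genes did.

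The near-identical group had 408.8, 472.3 and 2349 CPM in OA livers, against 3490, 6777 and 5999 CPM in chow livers. Mup7 had 13.9, 12.6 and 1101 CPM in OA livers, against 1781, 3978 and 3038 CPM in chow livers (-2.97 ± 1.23, adjusted p = 0.145, and -7.83 ± 0.65, adjusted p = 3.24e-05, without OA replicate 3). OA replicates 1 and 2 resembled vehicle livers and OA replicate 3 resembled OA-NO2 livers in this gene. OA replicate 3 was singled out after these values were seen, so the p without it cannot be read as a fresh test. Mup20 had 3075, 2277 and 1107 CPM in OA livers, against 2370, 2044 and 2871 CPM in chow livers, and was lowest in the library where Mup7 was highest. Its change against chow was -0.17 ± 0.35 with all libraries and 0.10 ± 0.31 without OA replicate 3, and was not called in either (adjusted p = 0.796 and 0.859).

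Against vehicle, OA gave 0 called members and 0 called genes in the whole table (0%) in edgeR. In DESeq2, 0 members were called, and 12 members were at an unadjusted p under 0.05 in edgeR, where 3.9% of all genes were. The summed level averaged 5967 ± 1666 CPM in OA livers and 4270 ± 480 CPM in vehicle livers (SD, n = 3 each), with a log2 fold change of 0.48 ± 0.25 (SE, 95% interval -0.05 to 1.02) and of 0.20 ± 0.24 (-0.32 to 0.73) without OA replicate 3. The near-identical group had 408.8, 472.3 and 2349 CPM in OA livers, against 213.0, 250.4 and 202.5 CPM in vehicle livers. All OA values of this sum lay above all vehicle values (2.28 ± 0.54), and the difference was 0.96 ± 0.28 without OA replicate 3. Mup17 had 84.1, 79.1 and 276.6 CPM in OA livers, against 44.6, 31.1 and 42.1 CPM in vehicle livers (1.90 ± 0.48, adjusted p = 0.975, and 1.03 ± 0.36 without OA replicate 3). Mup7 had a value of 4.83 ± 1.35 with all libraries and of -0.02 ± 0.46 without OA replicate 3. Mup17 was thus higher in every OA liver without passing the test, and 3 members in all had ranges above vehicle, where 7.81% of all genes did.

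Mup3 had 1307, 1957 and 4230 CPM in OA livers, against 1780, 1895 and 1132 CPM in vehicle livers (0.64 ± 0.37, and -0.00 ± 0.29 without OA replicate 3). Mup21 had 35.3, 36.8 and 86.9 CPM in OA livers, against 43.4, 46.1 and 40.2 CPM in vehicle livers (0.29 ± 0.32, and -0.29 ± 0.25 without OA replicate 3). The direction of the Mup21 difference rested on that library.

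With OA-NO2, levels of the family lay between those of vehicle and chow. The summed level averaged 8636 ± 1785 CPM in OA-NO2 livers and 4270 ± 480 CPM in vehicle livers (SD, n = 3 each), with no overlap and a log2 fold change of 1.02 ± 0.25 (SE, 95% interval 0.48 to 1.56), or 2.02-fold higher. The near-identical group had 2066, 3096 and 3184 CPM in OA-NO2 livers, against 213.0, 250.4 and 202.5 CPM in vehicle livers, a log2 fold change of 3.65 ± 0.57 or 12.5-fold higher. Only 1 of the 31 tested members was called, Mup17, which rose, where 0.0207% of all genes (3 genes) rose and 0 fell. It had 321.0, 583.2 and 418.0 CPM in OA-NO2 livers, against 44.6, 31.1 and 42.1 CPM in vehicle livers (3.49 ± 0.51, adjusted p = 0.0436), and the call was lost on leaving out any 1 of the 6 libraries (adjusted p 0.0538 to 0.262).

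Many other members lay higher without passing. In all, 19 members were at an unadjusted p under 0.05, where 15.8% of all genes were, and 19 had every OA-NO2 liver above every vehicle liver, where 9.18% of all genes did so. DESeq2 called 13 members, all higher, where it called 0.905% of all genes as higher. Mup7 had 712.6, 1250 and 1129 CPM in OA-NO2 livers, against 23.8, 7.46 and 8.37 CPM in vehicle livers (6.29 ± 1.44, adjusted p = 0.138). Mup14 had 500.3, 495.3 and 1058 CPM in OA-NO2 livers, against 38.4, 28.6 and 60.4 CPM in vehicle livers (4.01 ± 0.71, adjusted p = 0.0965). Mup11 had 270.8, 367.8 and 255.0 CPM in OA-NO2 livers, against 13.5, 14.9 and 16.3 CPM in vehicle livers (4.32 ± 0.85, adjusted p = 0.138). The groups did not overlap in any of these genes, and each passed in DESeq2.

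Mup3 had 3130, 5010 and 3733 CPM in OA-NO2 livers, against 1780, 1895 and 1132 CPM in vehicle livers (1.30 ± 0.37, adjusted p = 0.164). Mup21 had 55.0, 113.6 and 93.8 CPM in OA-NO2 livers, against 43.4, 46.1 and 40.2 CPM in vehicle livers (1.02 ± 0.32, adjusted p = 0.180). Both were higher in every OA-NO2 liver and neither was called in edgeR. DESeq2 called Mup3 (adjusted p = 0.0181) but not Mup21 (adjusted p = 0.0604). Mup22 had 78.8, 59.5 and 127.0 CPM in OA-NO2 livers, against 24.9, 88.4 and 50.4 CPM in vehicle livers, and overlapped (0.70 ± 0.50, adjusted p = 0.525). Mup20 had 1178, 1449 and 2242 CPM in OA-NO2 livers, against 1600, 2187 and 3013 CPM in vehicle livers, with a log2 fold change of -0.48 ± 0.35 (95% interval -1.24 to 0.28, adjusted p = 0.531). It was thus among the 5 tested members with a negative value here. Its share of Mup counts was 17.9%, 14.7% and 23.7% in OA-NO2 livers, against 43.0%, 48.1% and 66.3% in vehicle livers, with no overlap.

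Measured from chow, OA-NO2 livers had a lower total, and the share of the near-identical group overlapped. The summed level averaged 8636 ± 1785 CPM in OA-NO2 livers and 18310 ± 3042 CPM in chow livers (SD, n = 3 each), 2.12-fold lower (log2 fold change -1.08 ± 0.25 (SE)). The near-identical group made up 31.4%, 31.4% and 33.6% of Mup counts in OA-NO2 livers, against 23.5%, 32.8% and 30.9% in chow livers. Its level was lower in every OA-NO2 liver, with 2066, 3096 and 3184 CPM against 3490, 6777 and 5999 CPM in chow livers (-0.96 ± 0.52). Mup7 was also lower in every OA-NO2 liver but not called (-1.51 ± 1.16, adjusted p = 0.506). Mup3 held 47.5%, 50.9% and 39.4% in OA-NO2 livers, against 51.5% to 57.97% in chow livers, and Mup21 held 0.84% to 1.15% in OA-NO2 livers, against 1.32% to 1.77% in chow livers. Both shares were lower in every OA-NO2 liver. Of the 31 tested members, 1 fell, Mup21, and 0 rose, where 0.249% of all genes fell and 0.435% rose. Mup21 had 55.0, 113.6 and 93.8 CPM in OA-NO2 livers, against 263.9, 272.5 and 318.9 CPM in chow livers (-1.71 ± 0.32, adjusted p = 0.0450). Its call was lost on leaving out any chow replicate, OA-NO2 replicate 1 or OA-NO2 replicate 3 (adjusted p up to 0.136). Mup3 had 3130, 5010 and 3733 CPM in OA-NO2 livers, against 8620, 11360 and 9980 CPM in chow livers, all lower but not called in edgeR (-1.34 ± 0.37, adjusted p = 0.0975). DESeq2 called Mup3 (adjusted p = 0.00505), Mup21 (3.66e-05) and Mup2 (0.0482) as lower, where it called 5.27% of the genes it gave an adjusted p. Mup9 had 14.7, 26.4 and 17.0 CPM in OA-NO2 livers, against 5.77, 10.3 and 11.8 CPM in chow livers, and was the coding member with OA-NO2 above chow throughout (1.03 ± 0.43, adjusted p = 0.219). With Mup-ps4 it made 2 members above chow, where 12.3% of all genes were, against 6 members below chow, where 9.27% of all genes were. Mup-ps4 was near the limit of detection, with 58 counts over the OA-NO2 libraries and 5 over the chow libraries. Mup9 was singled out after its values were seen. The comparisons of vehicle, OA and OA-NO2 with chow share the chow libraries, as those with vehicle share the vehicle libraries, so they are not independent.

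**Figure D4:**
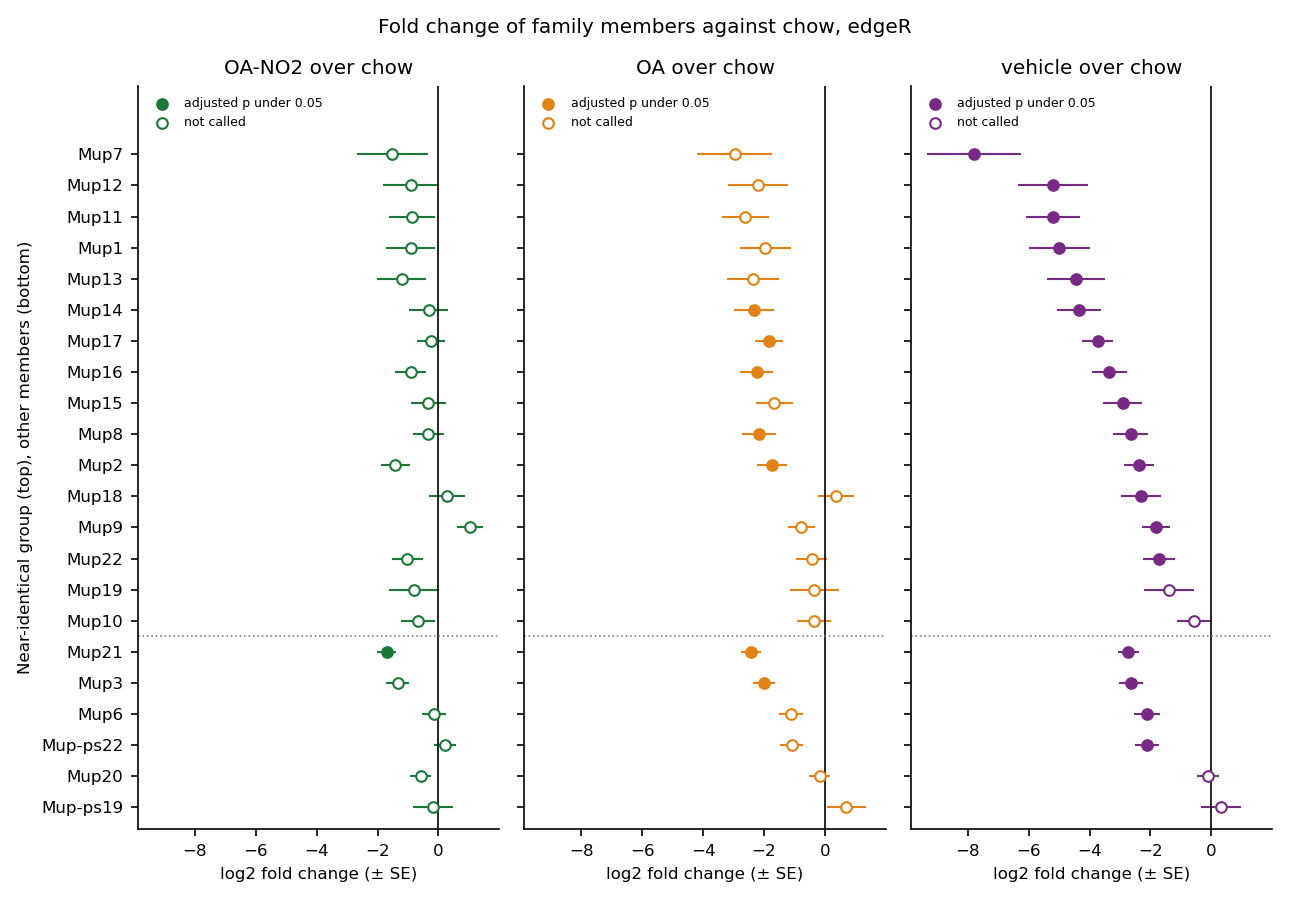
Log2 fold change against chow (points, bars are ± SE) of the 20 tested coding members with Mup-ps19 and Mup-ps22, for OA-NO2, OA and vehicle; filled points were called at an adjusted p under 0.05, and a dotted line parts the near-identical group from the rest. The vehicle panel has 18 filled points down to -7.79 for Mup7, the OA panel 7 and the OA-NO2 panel 1, Mup21.

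The nitrated and the parent fatty acid, given at the same dose, form 1 pair of compounds. The summed level averaged 8636 ± 1785 CPM in OA-NO2 livers and 5967 ± 1666 CPM in OA livers (SD, n = 3 each), with overlap and a log2 fold change of 0.53 ± 0.25 (SE, 95% interval -0.00 to 1.07). Without OA replicate 3 it was 0.80 ± 0.25 (0.26 to 1.34). Of the 31 tested members, 0 were called in edgeR, where 0.00691% of all genes (1 gene) rose and 0% fell. There were 10 members at an unadjusted p under 0.05, where 12% of all genes were, and DESeq2 called 1, Mup9, as higher, where it called 0.187% of all genes as higher. Mup9 had 14.7, 26.4 and 17.0 CPM in OA-NO2 livers, against 2.34, 4.41 and 10.1 CPM in OA livers (1.80 ± 0.43, adjusted p = 0.313 in edgeR). Mup14 had 500.3, 495.3 and 1058 CPM in OA-NO2 livers, against 68.2, 43.4 and 404.5 CPM in OA livers (1.99 ± 0.65, 95% interval 0.59 to 3.40, adjusted p = 0.339). Both were higher in every OA-NO2 liver, as 6 members were in all (6.98% of all genes), so the missed threshold does not show that the compounds act alike.

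The comparison turned on OA replicate 3. Without it, 12 of 32 tested members rose in OA-NO2 livers against the other OA livers, where 0.296% of all genes rose: Mup1, Mup6, Mup7, Mup8, Mup9, Mup11, Mup12, Mup14, Mup16, Mup17, Mup21 and Mup-ps22. Mup7 then had a log2 fold change of 6.30 ± 0.61 (SE, adjusted p = 0.000612), against 1.46 ± 1.16 (adjusted p = 0.613) with all libraries. The near-identical sum had 2.67 ± 0.32 without that library and 1.37 ± 0.53 with it. Every library was left out in turn, and this one is singled out because its values were seen to stand apart. Mup20 had 1178, 1449 and 2242 CPM in OA-NO2 livers, against 3075, 2277 and 1107 CPM in OA livers (-0.41 ± 0.35, 95% interval -1.17 to 0.35, adjusted p = 0.645), and -0.71 ± 0.31 (adjusted p = 0.256) without OA replicate 3.

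Hepatocytes, the cells that make these proteins in liver, were weighed by 18 of their marker genes, among them albumin and apolipoproteins. The markers summed to 110400 to 153100 CPM in OA-NO2 livers, 94130 to 144100 CPM in OA livers, 81130 to 100300 CPM in vehicle livers and 188600 to 217600 CPM in chow livers, and 0 of them was at 0 in any group. Between vehicle and chow, 8 of the 18 fell, where 8.16% of all genes did. Mup counts per 100 hepatocyte marker counts were 5.97, 7.48 and 6.19 in OA-NO2 livers, 5.39, 4.68 and 5.47 in OA livers, 3.78, 4.54 and 5.60 in vehicle livers, and 6.83, 10.5 and 10.3 in chow livers. Vehicle livers stayed below chow livers in this ratio (difference -0.98 ± 0.26 on the log2 scale, SE), and OA-NO2 livers above vehicle livers (0.51 ± 0.19), both by less than in the plain sum. The second difference was 0.32 ± 0.33 without Mup3 and 0.35 ± 0.26 with albumin as the only marker. In bulk tissue, fewer hepatocytes and less RNA per hepatocyte cannot be told apart.

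Some markers of other liver cells differed between vehicle and chow livers as well. Between vehicle and chow, 3 of 5 macrophage, 4 of 5 stellate and fibroblast, 3 of 4 cholangiocyte, 0 of 4 endothelial and 1 of 4 lymphocyte markers rose and 0 fell. Over all genes, 11.1% rose and 8.16% fell. Macrophage markers summed to 320.3 to 324.0 CPM in OA-NO2 livers, 368.2 to 689.0 CPM in OA livers, 408.7 to 574.4 CPM in vehicle livers and 138.6 to 300.6 CPM in chow livers. Stellate and fibroblast markers summed to 281.7 to 437.6 CPM in OA-NO2 livers, 313.6 to 655.9 CPM in OA livers, 426.7 to 708.2 CPM in vehicle livers and 246.5 to 294.2 CPM in chow livers. Cholangiocyte markers summed to 6.83 to 10.7 CPM in OA-NO2 livers, 3.97 to 17.6 CPM in OA livers, 6.15 to 28.5 CPM in vehicle livers and 3.65 to 7.49 CPM in chow livers. Endothelial markers summed to 113.6 to 117.3 CPM in OA-NO2 livers, 106.7 to 152.5 CPM in OA livers, 96.4 to 128.6 CPM in vehicle livers and 106.1 to 176.8 CPM in chow livers. Lymphocyte markers summed to 15.3 to 17.7 CPM in OA-NO2 livers, 24.5 to 37.4 CPM in OA livers, 26.2 to 30.2 CPM in vehicle livers and 6.08 to 17.9 CPM in chow livers. No listed marker was at 0 in a whole group. The part of cell make-up in the Mup differences was not tested.

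Some genes of a list of growth hormone signalling genes and liver regulators were lower too. Their part in the Mup differences was not tested. Of the 24 tested genes of the list, 6 fell and 0 rose in vehicle livers against chow, where 8.16% of all genes fell and 11.1% rose. Igf1, the growth factor that liver releases on growth hormone, averaged 429.8 ± 102.4 CPM in vehicle livers and 1084 ± 111 CPM in chow livers (SD, n = 3 each; log2 fold change -1.34 ± 0.30 (SE), adjusted p = 0.0110). Igfals, which keeps IGF1 in blood, averaged 30.5 ± 12.8 CPM in vehicle livers and 71.0 ± 2.58 CPM in chow livers (-1.22 ± 0.32, adjusted p = 0.0210). Thrb, the main thyroid hormone receptor of liver, averaged 28.9 ± 1.35 CPM in vehicle livers and 43.8 ± 7.15 CPM in chow livers (-0.60 ± 0.16, adjusted p = 0.0234). Hnf4a, Ghr (the growth hormone receptor) and Prlr (the prolactin receptor) fell as well, by 0.62, 0.92 and 1.17 on the log2 scale. In OA livers against chow, 2 fell, where 2.23% of all genes did: Socs2, a feedback inhibitor induced by growth hormone (-1.48 ± 0.38, adjusted p = 0.0312), and Foxa3, a liver transcription factor (-0.61 ± 0.16, adjusted p = 0.0320). Without OA replicate 3, 6 of the 24 fell, where 5.6% of all genes did. In OA-NO2 livers against chow, and between the 3 NASH-diet groups, 0 of the 24 were called.

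Other genes known to be higher in male than in female mouse liver fell beside the Mup genes. Of 14 tested, 11 fell and 0 rose in vehicle livers against chow, where 8.16% of all genes fell and 11.1% rose. The median log2 fold change of the 14 was -2.09. In OA livers against chow 7 fell, and in OA-NO2 livers against chow 1 did, where 2.23% and 0.249% of all genes fell. Hsd3b5, a steroid-handling enzyme, averaged 0.204 ± 0.015 CPM in vehicle livers and 56.6 ± 12.3 CPM in chow livers (SD, n = 3 each; log2 fold change -8.07 ± 1.17 (SE), adjusted p = 0.00250). Slco1a1, an organic anion transporter, averaged 28.7 ± 10.2 CPM in vehicle livers and 436.0 ± 91.9 CPM in chow livers (-3.93 ± 0.60, adjusted p = 0.00254). Moxd1, a monooxygenase relative, averaged 0.0511 ± 0.0534 CPM in vehicle livers and 15.2 ± 20.1 CPM in chow livers (adjusted p = 0.00295). For Moxd1 the SD in chow exceeded the mean, so chow libraries differed widely, and the vehicle level was near the limit of detection. Hsd3b5 was also the gene called in OA-NO2 livers against chow (-4.47 ± 0.89, adjusted p = 0.0450).

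In OA livers against chow, the 7 were Moxd1, Susd4, Hsd3b5, Slco1a1, Cyp7b1, Serpina1e and Ugt2b38. Among the NASH-diet groups, 0 of the 14 were called in any comparison with all libraries. The median over the 14 was 1.79 on the log2 scale for OA-NO2 against vehicle and 0.37 for OA against vehicle, and the value for OA turned to -0.45 without OA replicate 3. Without OA replicate 3, 6 of the 14 rose in OA-NO2 livers against OA, where 0.296% of all genes did. In OA livers against chow, 10 then fell, where 5.6% of all genes did. Of 10 tested genes known to be higher in females, 2 rose in vehicle livers against chow, where 11.1% of all genes did: Cyp2a4 (2.79 ± 0.74, adjusted p = 0.0214) and Prom1 (3.08 ± 0.83, adjusted p = 0.0225). In the same list, 2 genes fell in vehicle livers and 2 in OA livers against chow, where 8.16% and 2.23% of all genes fell. Cyp2c40 fell in vehicle livers (-2.71 ± 0.52, adjusted p = 0.00501), and in OA livers (-2.05 ± 0.50, adjusted p = 0.0238). Without OA replicate 3, 2 of 11 tested rose and 2 fell in OA livers against chow, where 15% of all genes were called. The female-biased list thus went both ways. Several of these genes (Cyp2a4, Cyp2c40, Hsd3b5 and, among the lipocalins, Orm2 and Orm3) have close copies, so their counts are uncertain as well.

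Other lipocalins, relatives of the Mup proteins, also went both ways. Of 8 tested, 3 rose in vehicle livers against chow, where 11.1% of all genes did: Orm3 and Orm2, acute-phase carriers (1.90 ± 0.30 and 1.94 ± 0.53 on the log2 scale, adjusted p = 0.00254 and 0.0238), and Lcn2, which binds bacterial iron carriers (3.12 ± 0.62, adjusted p = 0.00604). Apom, a carrier of sphingosine 1-phosphate, averaged 77.0 ± 7.18 CPM in vehicle livers and 233.9 ± 77.5 CPM in chow livers and fell (-1.60 ± 0.23 (SE), adjusted p = 0.00250). C8g of the complement system and Rbp4, the retinol carrier, fell by 0.80 and 0.78 on the log2 scale. Thus 3 of the 8 fell, where 8.16% of all genes did. In OA livers against chow, Orm3 (2.61), Lcn2 (4.46) and Orm2 (2.77) rose and Apom (-1.47) and C8g (-0.84) fell, where 6.33% of all genes rose and 2.23% fell. Orm3 alone was called in OA-NO2 livers against chow (2.07 ± 0.30, adjusted p = 0.00871), where 0.435% of all genes rose. Among the NASH-diet groups, 0 of the 8 were called. Without OA replicate 3, 1 of the 8 fell in OA-NO2 livers against OA, where 0.875% of all genes were called. In OA livers against chow, 3 then rose and 3 fell, where 15% of all genes were called.

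Genes beside the cluster were counted as well. Of the 10 nearest coding genes of other families on each side, 18 were in the table and 14 were tested. In vehicle livers against chow, 2 fell, where 8.16% of all genes did: Slc31a1, the copper importer, which averaged 133.0 ± 12.8 CPM in vehicle livers and 224.1 ± 15.3 CPM in chow livers (SD, n = 3 each; -0.75 ± 0.17 (SE), adjusted p = 0.0110), and Ptbp3, an RNA-binding protein (-0.67 ± 0.17, adjusted p = 0.0181). The median log2 fold change of the 14 was -0.18. In OA livers against chow 1 fell, where 2.23% of all genes did: Hdhd3 (-0.65 ± 0.16, adjusted p = 0.0237). In the other comparisons 0 were called.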

How the data were processed

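Total liver RNA was made into mRNA libraries (KAPA HyperPrep kit) and sequenced as paired reads of 76 bases, per the labels' protocols. Per the submitters' processing notes, Trimmomatic 0.35, HISAT2 2.1.0, SAMtools 1.2, HTSeq and the build GRCm38 were used. No source used here gives the annotation release, the strand setting or how multiply mapping reads were treated. The authors deposited whole-number read counts per gene, not normalised, in 1 table, in which 0 columns were left unmapped. Reads that could come from several copies can be dropped, split or misplaced between them, so single near-identical members are less certain than sums. If such reads were dropped, the sums would miss them as well.

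Symbols, positions and transcripts came from GENCODE M21 on GRCm38; 24914 of 24983 identifiers had a symbol, and the annotation holds 49 symbols of the family. Genes passing the default low-count filter of edgeR 4.0.16 in R 4.3.3 (minimum count 10, minimum total 15; 14469 genes) entered 1 quasi-likelihood model of all 12 libraries with TMM scaling. The biological coefficient of variation was 0.226, and the script was checked on simulated data. Standard errors are approximate, from the size of the log2 fold change over the root of F. For sums, the members were replaced by 1 summed row in the same model. Groups came from the labels, replicate numbers only name libraries, in accession order. Replicates differed beyond counting noise (chi-square per degree of freedom of at least 26.8), so 0 were counted as duplicates.

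Members, lists and the rule for named genes (the 8 members with the highest mean CPM, Mup20, Mup21, Mup4, Mup5, called members where 12 or fewer, and from each list the 3 with the lowest p between vehicle and chow) were chosen with earlier results of these data known. Alternatives were other scalings, no filter, fits of 2 groups only, DESeq2 1.42.0, leaving out each library, and sums without some members. The result of 1 gene of the female-biased list is not reported here.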

Additional observations from a re-analysis of the deposited data

How the results depend on the processing

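No paired analysis was possible because the labels give ear tags and no shared replicate numbers. Between vehicle and chow, called members numbered 15 to 20 under all alternatives, where 8.12% to 39.8% of all genes were called. On library size alone, 1 of 18 was higher. For OA against chow they numbered 2 in a fit of those 2 groups (5.8% of all genes), 11 with no filter (5.61%), and 2 to 17 on leaving out 1 library (2.35% to 15%). For OA-NO2 against chow they numbered 3 in DESeq2 (5.27%), 2 on library size alone (7.79%), and 0 to 1 on leaving out 1 library. For OA-NO2 against vehicle they numbered 13 in DESeq2 (2.08% of the genes it gave an adjusted p), 13 in a fit of those 2 groups (0.442% of all genes), 14 with no filter (0.604%) and 0 on leaving out any library. For OA-NO2 against OA they numbered 1 in DESeq2 (0.408%) and 0 to 12 on leaving out 1 library. For OA against vehicle 0 were called under any alternative. Library size alone moved the median of all genes by 0.51 (vehicle), 0.42 (OA) and 0.34 (OA-NO2) against chow, and by -0.18 for OA-NO2 and -0.09 for OA against vehicle and -0.11 for OA-NO2 against OA. The log2 change of the sum was then -1.58 (vehicle), -1.22 (OA) and -0.79 (OA-NO2) against chow. Without Mup3 it was -1.64 for vehicle and -1.26 for OA against chow. Without Mup20 and Mup-ps19, chosen after seeing the data, it was -3.05 for vehicle and -2.10 for OA against chow, 1.87 for OA-NO2 and 0.95 for OA against vehicle, and 0.91 for OA-NO2 against OA. The sum kept its sign under all alternatives in each comparison. The ratio to hepatocyte markers without Mup3 was -0.54 for vehicle and -0.41 for OA against chow.

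Named members changed sign only where they were not called. On library size alone, Mup17 had 0.038 for OA-NO2 against chow, Mup20 had 0.30 for OA and 0.42 for vehicle against chow, and Mup22 had 0.0022 for OA against chow. Leaving out 1 library at a time, Mup17 ran between -0.58 and 0.14 for OA-NO2 against chow, and Mup22 between -0.95 and 0.16 for OA-NO2 against OA. Mup20 ran between -0.36 and 0.10 for vehicle against chow, -0.52 and 0.10 for OA against chow, and -0.42 and 0.21 for OA against vehicle. For OA against vehicle, the values without OA replicate 3 were the lowest for Mup21 (-0.29 to 0.52), Mup3 (-0.00098 to 0.95) and Mup7 (-0.019 to 5.57). The causes were not tested. Depth limits the 11 members outside the test, which held at most 86 counts.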
